A study of Rubus occidentalis with 14 samples.

Results

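Among the genes of ripening black raspberry fruit (Rubus occidentalis), 200 were selected that lost transcript stepwise, at each of 3 successive drops from stage 1 to stage 5. Stage means of the deposited normalised counts were put on the scale log2(mean + 10), with stages 3 and 4 averaged. A gene needed a stage 1 mean of at least 100 normalised counts and a stage 2 mean of at least 20. Its score was the smallest of the drops from stage 1 to stage 2, from stage 2 to stages 3 and 4, and from stages 3 and 4 to stage 5. Of 33253 identifiers, 12596 met the minimum means and 259 scored at least 0.7, of which the 200 highest were kept. The fall across these 3 drops is therefore how the genes were found, and it is described below; counts of test calls on these contrasts are given as description only. The same rule turned around, for genes rising from stage 1 to stage 5, was passed by 156 of 10575 genes (1.48%), against 259 of 12596 (2.06%) for falling genes. Both shares moved with the scaling: with every library scaled to the same total, 0.571% of genes passed rising and 4.88% falling, and with quantile normalization 1.22% and 1.48%.

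The fruit came from a black raspberry breeding selection, NC 349, at a research station in North Carolina, and the labels list no treatment or genotype that differs between libraries. Groups were 5 fruit stages, numbered 1 to 5 in the labels, with 3 poly(A) RNA libraries each for stages 1, 2, 3 and 5 and 2 for stage 4. The labels call them biological replicates and do not say how plants or fruits were divided among them, so a p-value here reflects library-to-library spread, which may be partly technical. In stages 1, 2, 3 and 5, replicates 2 and 3 carry the same title code and replicate 1 another, and what these codes stand for is not given. The sources used here do not give plant age, harvest dates or the number of fruits per library.

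A black raspberry is a cluster of drupelets around a receptacle, and each drupelet holds a seed in soft flesh. While such fruit ripens, it loses chlorophyll, gains anthocyanin pigment and sugar, and softens as its cell walls are taken apart. Growth comes to an end over the same time. Transcripts of young-fruit programmes such as photosynthesis, cell division and early wall building are known to decline in many ripening fruits. A transcript that falls in a whole-fruit sample may be made less, degraded faster, or belong to cells that form a smaller part of the fruit. In these bulk libraries, fewer cells of a type and less RNA per cell cannot be told apart. The table gives identifiers without gene names, so no function is assigned to any of the 200 genes, no member of a pathway could be looked up, and no marker of the tissue could be checked.

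Recovered library totals ran from 7576338 to 39938265 reads, and 1 read was worth 0.319 to 2.76 normalised counts. Read numbers of the selected genes were smallest at the end of the series. The median selected gene had 463 to 2203 reads in the stage 1 libraries and 6 to 13.5 reads in the stage 5 libraries. Stage 5 replicates 1, 2 and 3 had no reads for 10, 20 and 3 of the 200 genes. Late levels of the lower genes were thus measured in steps of single reads.

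The selected genes started above the median of all genes tested and ended far below it. The rule asked for a stage 1 mean of at least 100 and for 3 drops, so this contrast is largely built in. The genes tested did not have to meet the minimum means. Their stage 1 means ran from 100.4 to 26198 normalised counts with a median of 704, and 82 of the 200 stood at 1000 or more. The median of the gene means then went to 214 (stage 2), 63.2 (stage 3), 45.7 (stage 4) and 16.8 (stage 5). In stage 5, 71 genes had a mean below 10 normalised counts, while 18 still had a mean of at least 100. Over the genes with any reads in stage 5, the ratio of the stage 1 mean to the stage 5 mean had a median of 36.4 and was never below 7.27.

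The share of sequencing the 200 genes took, which does not depend on the size factors, fell as well. By this measure most genes fell: with every library scaled to the same total, 16225 of 19717 genes tested were lower in stage 5 than in stage 1. The median log2 change was then -1.61 over all genes tested and -6.54 over the 200 genes. Stage 1 libraries gave them 2.58% ± 0.14 of all reads (SD, n = 3) and stage 2 libraries 0.575% ± 0.106 (n = 3). Stage 3 libraries gave them 0.123% ± 0.026 (n = 3), stage 4 libraries 0.0713% ± 0.00021 (n = 2) and stage 5 libraries 0.0277% ± 0.0044 (n = 3). No library of a stage reached the share of any library of the stage before it. The same libraries chose the genes, so this fall is largely built in, apart from the step from stage 3 to stage 4. The plot of levels by library shows the median of the 200 genes above that of all tested genes in stage 1, near it in stage 2 and below it from stage 3 on.

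**Figure D1:**
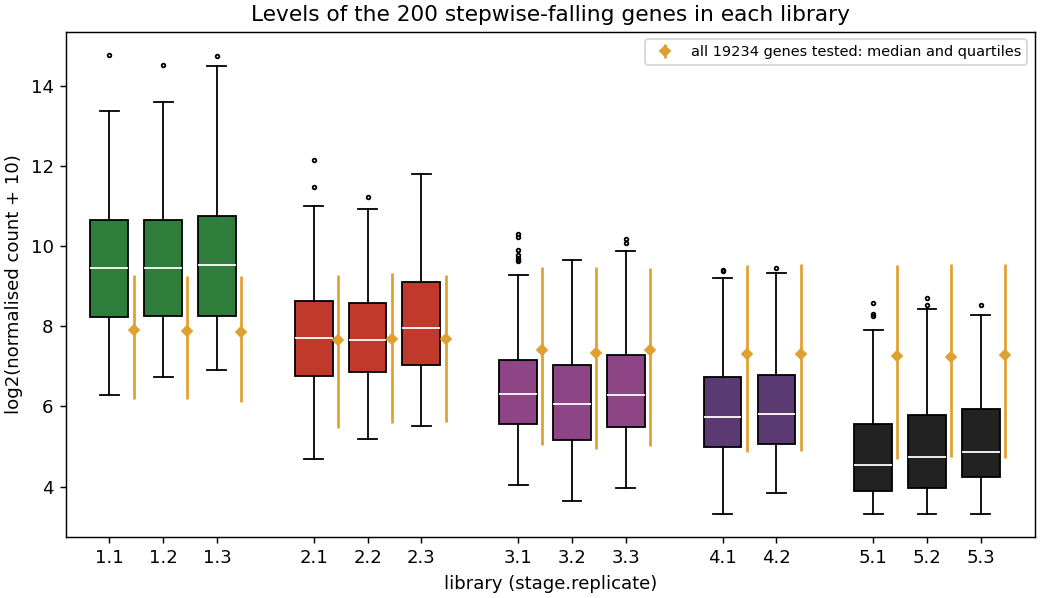
Levels of the 200 selected genes in each of the 14 libraries, as log2(normalised count + 10): boxes give the median and quartiles, whiskers 1.5 times the box height, points the genes beyond. Orange diamonds and lines beside the boxes give the median and quartiles of all 19234 genes tested, whose median goes from 7.91 in stage 1 replicate 1 to 7.25 in stage 5 replicate 1, while the boxes step down further.

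The highest score, with drops close to equal, belonged to Ro04_G19456. Its normalised counts were 1299, 1492 and 1274 in stage 1, 305, 358 and 347 in stage 2, 121, 76.9 and 101 in stage 3, 53.2 and 82.5 in stage 4, and 8.81, 13.8 and 13.3 in stage 5. The libraries of stages 1, 2 and 5 did not overlap with those of any other stage, and only stages 3 and 4 did. Between stage 1 and stage 5 the mean went from 1355 ± 119 to 12.0 ± 2.75 normalised counts (SD, n = 3 each), a ratio of 113, through drops of 1.98, 1.91 and 2.07 on the log2 scale.

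Ro06_G20939, with the next highest score, behaved similarly from a higher start. It stood at 4743, 4765 and 8119 in stage 1, 1692, 1034 and 1678 in stage 2, 822, 336 and 832 in stage 3, 254 and 275 in stage 4, and 42.1, 85.7 and 63.5 in stage 5. No 2 stages overlapped, although stage 3 replicate 2 lay well under the other stage 3 libraries. Its mean in stage 1 was 5876 ± 1943 and in stage 5 63.8 ± 21.8 (SD, n = 3 each), a ratio of 92.1.

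The most abundant of the 200 genes in stage 1 was Ro06_G20503. It stood at 27782, 23318 and 27494 normalised counts in stage 1, 2021, 1899.8 and 3571 in stage 2, 865, 471 and 567 in stage 3, 438 and 368 in stage 4, and 130.2, 221 and 228 in stage 5. Stages did not overlap, and most of the loss lay between stages 1 and 2, where the mean fell 10.5-fold. Ro07_G09033 came next in abundance, with 10627, 12359 and 22944 in stage 1, 1104, 972 and 1474 in stage 2, 509.7, 556 and 541 in stage 3, 419 and 492 in stage 4, and 94.0, 166 and 219 in stage 5. Its stage 1 libraries were far apart, but again no stages overlapped.

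**Figure D2:**
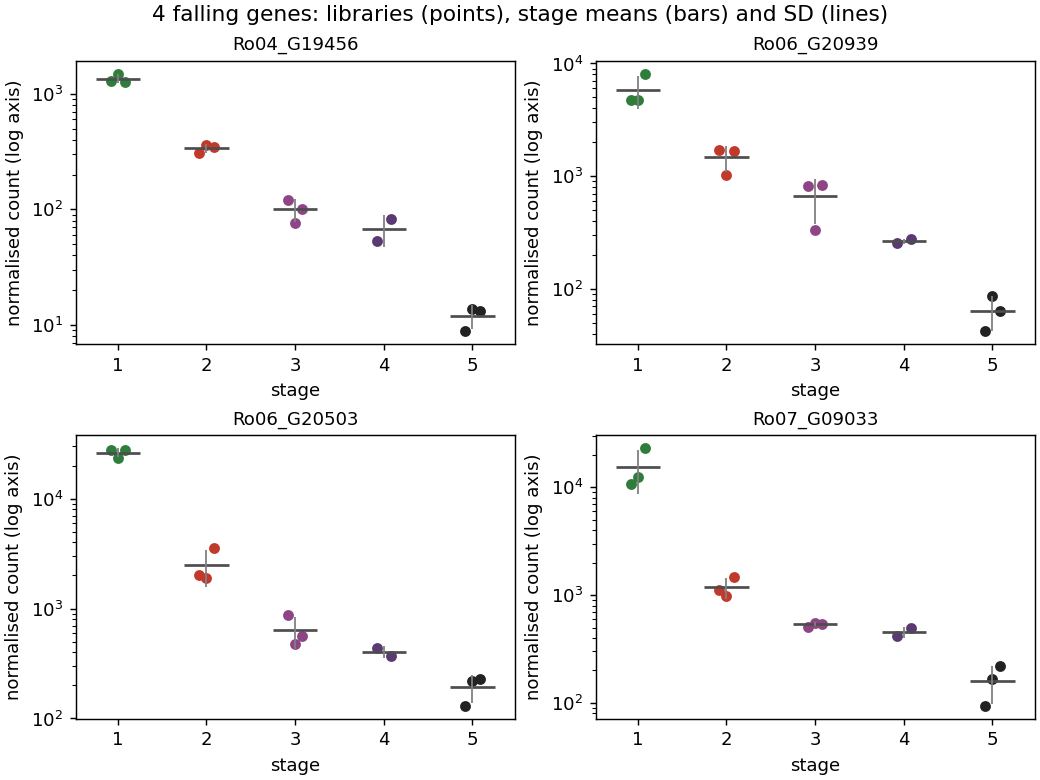
Normalised counts by stage, on a log axis, for the genes with the highest scores (Ro04_G19456 and Ro06_G20939) and the highest stage 1 means (Ro06_G20503 and Ro07_G09033). Points are libraries, bars are stage means and vertical lines the SD (n = 3, or 2 in stage 4); each gene steps down at every stage, with the smallest step between stages 3 and 4 in all but Ro06_G20939.

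The 200 genes differed in where the fall was steepest. The drop from stage 2 to stages 3 and 4 was the largest of the 3 in 94 genes, that from stage 1 to stage 2 in 75, and that from stages 3 and 4 to stage 5 in 31. The last drop was the smallest in 117 genes. All 3 drops reached 1 on the log2 scale, a halving of mean + 10, in 79 genes. The medians of the drops were 1.33, 1.62 and 1.05, with highest values of 5.08, 4.22 and 2.93. The constant of 10 shortens the last drop most, because the stage 5 means are closest to it.

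Genes with the steepest early drop had lost nearly all transcript by stage 2. Ro06_G15078 went from 2265, 1661 and 2144 normalised counts in stage 1 to 59.2, 28.4 and 62.7 in stage 2, a 40.4-fold fall of the mean. It then stood at 53.7, 23.1 and 13.1 in stage 3, 26.6 and 16.0 in stage 4, and 6.85, 8.29 and 8.87 in stage 5. Its stage 2 and stage 3 libraries overlapped, so the middle drop rested on small differences. Ro02_G35126 fell 32.7-fold at the same step, from 5698, 7682 and 12834 to 260.1, 227 and 315. It was at 119.7, 74.3 and 175 in stage 3, 227 and 131 in stage 4, and 79.3, 85.7 and 84.2 in stage 5. Its stage 4 libraries overlapped with both stage 2 and stage 3, and its stage 3 libraries with stage 5.

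Genes with the steepest middle drop had their main loss between stages 2 and 3. Ro07_G07746 stood at 5549, 5487 and 6682 in stage 1 and at 605, 1143 and 2367 in stage 2. It was then at 86.4, 74.3 and 101 in stage 3, 58.1 and 35.4 in stage 4, and 6.85, 38.7 and 50.2 in stage 5. The stage 2 libraries were far apart, yet all lay well above stage 3, whose mean was 15.7-fold lower. Ro03_G06544 stood at 8989.6, 8769 and 4104 in stage 1 and 4529.8, 1908 and 3113 in stage 2, which overlapped. It fell 13.1-fold in the mean to 384, 143 and 201 in stage 3, then stood at 111 and 139 in stage 4 and 58.8, 99.5 and 91.6 in stage 5.

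Genes with the steepest last drop declined moderately until stage 4. Ro06_G11086 stood at 1596, 1630.0 and 1849 in stage 1, 493, 448 and 637 in stage 2, 458, 225 and 276 in stage 3, 172 and 205 in stage 4, and 15.7, 19.4 and 35.5 in stage 5. The fall from the stage 4 to the stage 5 mean was 8.03-fold, more than at any earlier step of this gene. Ro05_G30506 stood at 795, 757 and 891 in stage 1, 367, 319 and 487 in stage 2, 197, 225 and 188 in stage 3, 167 and 133 in stage 4, and 16.6, 19.4 and 17.7 in stage 5. Its stages did not overlap, and its last step was 8.38-fold.

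**Figure D3:**
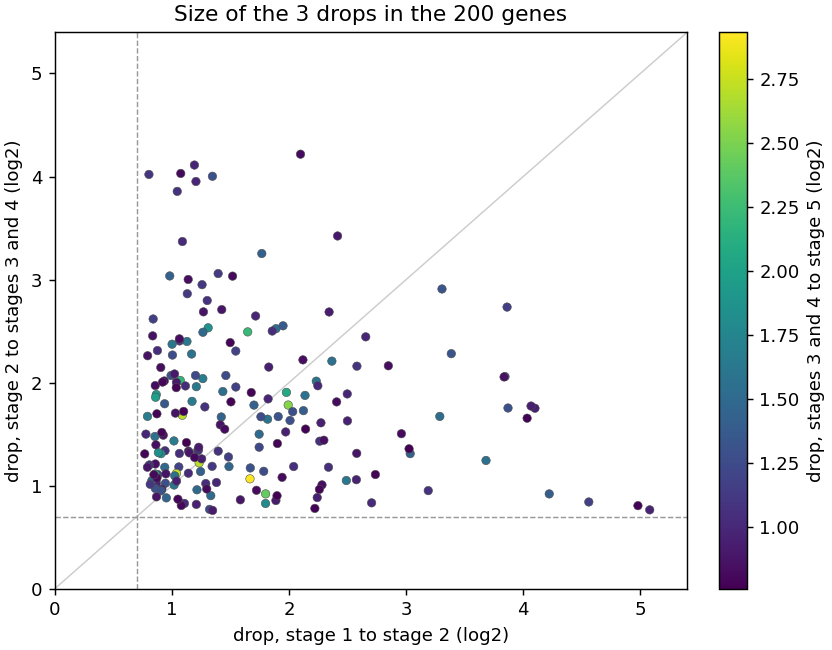
Drop from stage 1 to stage 2 (horizontal axis) against drop from stage 2 to stages 3 and 4 (vertical axis) for the 200 genes, both on the log2(mean + 10) scale, with colour for the drop from stages 3 and 4 to stage 5. Dashed lines mark the limit of 0.7 and the grey diagonal equal drops; points spread to 5.08 along one axis and 4.22 along the other, and few genes are high on both.

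The limit of the rule did not matter for who entered, since the cap of 200 was reached at a score of 0.76. Just inside, Ro01_G03023 scored 0.760 with a stage 5 mean of 2.30 ± 3.17 (SD, n = 3), and Ro07_G07745 scored 0.760 with 101 ± 30.1. Just outside, Ro03_G05228 scored 0.759 with a stage 5 mean of 17.2, and Ro04_G26129 scored 0.758 with 6.27. The 59 genes past 0.7 but beyond the cap were not counted among the 200.

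Most of the selected genes stepped down without overlap between libraries. All stage 1 libraries lay above all stage 2 libraries in 192 of the 200 genes, which was so in 33.2% of all 19234 genes tested. All stage 2 libraries lay above all those of stages 3 and 4 in 188 genes (32.0% of all genes tested), and the latter above all of stage 5 in 162 (16.4%). All 3 conditions held in 150 genes and in 2.58% of all genes tested. These counts describe the contrasts that chose the genes.

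The limma test, with Benjamini-Hochberg adjustment over all genes tested and the spread estimated from all 14 libraries, was set beside these counts as a description: the same stage differences chose the genes, so nothing is read from its calls at these steps. It called 172 of the 200 genes lower from stage 1 to stage 2, where 24.3% of all genes were called lower, and 175 lower from stage 2 to stage 3 (28.9%). Between stages 4 and 5 it called 123 lower (10.8%), and between stages 1 and 5 all 200 (44.8%). The count for the last step rested on the 2 stage 4 libraries: it was 61 without stage 4 replicate 1 (6.05% of all genes tested) and 56 without stage 4 replicate 2 (5.31%). A single library of a stage was then taken to have the spread of the remaining stages. With the libraries of stages 4 and 5 alone it was 28 (4.28%).

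The step from stage 3 to stage 4 is the part of the course that did not enter the rule, which used only the average of the 2 stages. Levels drifted down here as well, by less than at the other steps. The log2 change was below 0 in 172 of the 200 genes, against 49.2% of all genes tested, and its median was -0.50 (quartiles -0.75 and -0.19), against 0 for all genes tested (quartiles -0.30 and 0.23). It reached -1 or lower in 27 genes. By the means, stage 4 lay below stage 3 in 177 genes, and these 177 had stage means that fell at all 4 steps.

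Gene by gene, this step did not pass the test. After adjustment limma called 0 of the 200 genes, and 0.0156% of all genes tested in either direction. At an unadjusted p below 0.05, 41 of the 200 genes were lower and 0 higher, where 7.5% of all genes were lower and 6.16% higher. The edgeR quasi-likelihood test on the recovered reads also called 0 (0.0% of all genes called lower), with 67 lower at an unadjusted p below 0.05 (7.81%). DESeq2 called 12 of the 197 genes for which it gave an adjusted p, all lower (1.14% of all genes called lower), with 70 lower at an unadjusted p below 0.05 (7.32%). Every stage 3 library lay above both stage 4 libraries in 81 genes, against 14.7% of all genes tested.

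A downward drift from stage 3 to stage 4 was shared with other falling genes. A further 1455 genes met the minimum means, were not selected, and fell from stage 1 to stage 5 by at least as much as the smallest fall of the 200, 2.84 on the log2 scale. Their median change from stage 3 to stage 4 was -0.43, and 78.4% of them were below 0. This group was defined after the values had been seen, its median fall from stage 1 to stage 5 was smaller (-4.24 against -5.31), and the difference between the groups was not tested.

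**Figure D4:**
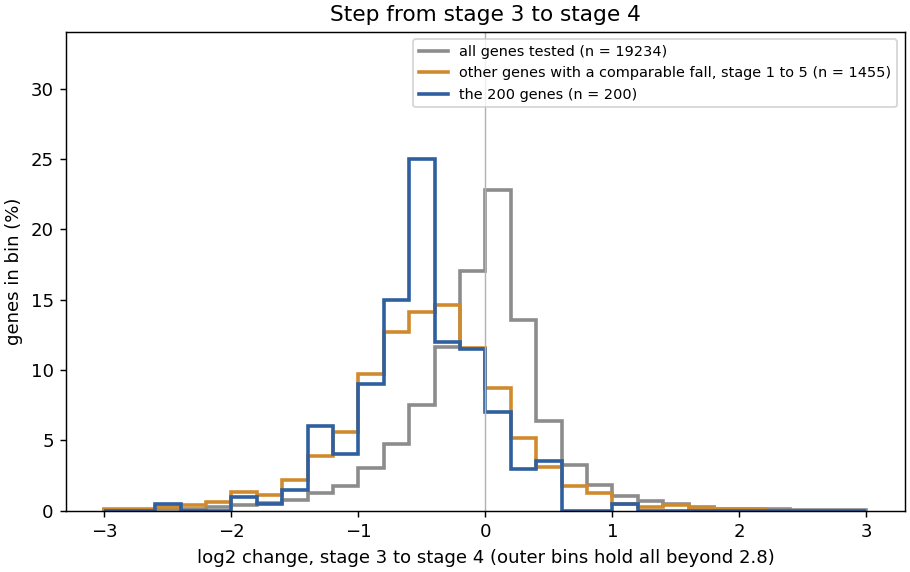
Distribution of the limma log2 change from stage 3 to stage 4, in bins of 0.2, for the 200 selected genes (blue), 1455 other genes with a fall from stage 1 to stage 5 of at least 2.84 (orange) and all 19234 genes tested (grey). The vertical axis is the percentage of each group; blue and orange lie mostly below 0, with medians of -0.50 and -0.43, and grey centres on 0.

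Libraries and title codes moved with this step. Stage 3 replicate 2, with 8597118 reads, was the lowest of its stage in 120 of the 200 genes, against 36.1% of all genes tested. Without it the median change was -0.63 and limma called 11 of the 200 genes, all lower, where 1.34% of all genes tested were called lower. Stage 3 replicates 2 and 3 and stage 4 replicate 2 carry title codes that open with TH, and the other libraries codes that open with YH. Among the TH libraries of these stages (2 against 1) the median change was -0.38 with 155 genes below 0, and among the YH libraries (1 against 1) it was -0.67 with 172 below 0. The part of depth or of what the codes stand for in the change was not tested.

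The smallest p-values at this step belonged to Ro05_G03608 and Ro07_G16746. Ro05_G03608 stood at 1621, 1413 and 1712 normalised counts in stage 1 and 618, 519.6 and 711 in stage 2, then at 47.9, 43.5 and 69.5 in stage 3, 14.5 and 13.5 in stage 4, and 4.90, 8.29 and 4.43 in stage 5. Stages 3 and 4 did not overlap, and the log2 change was -1.84 ± 0.27 (SE) with a limma adjusted p of 0.0562. Over 29 alternative settings the adjusted p ran from 0.000514 to 0.391, with the gene called in 8 of them and lower in all 29.

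Ro07_G16746 stood at 753, 1106 and 1643 in stage 1 and 543, 503 and 635 in stage 2, then at 56.0, 43.5 and 62.0 in stage 3, 19.4 and 9.26 in stage 4, and 8.81, 8.29 and 8.87 in stage 5. The log2 change from stage 3 to stage 4 was -1.91 ± 0.34 (SE, limma adjusted p 0.059), and it was called in 3 of the 29 settings (adjusted p 0.00338 to 0.391). Both genes had thus reached a few reads per library by stage 5, where they were as low as 3 reads. Their course was alike: a modest fall into stage 2, the main loss between stages 2 and 3, and a further drop into stage 4.

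The smallest p-values in the other direction belonged to Ro04_G36796 and Ro02_G35126. Ro04_G36796 stood at 25.1, 2.56 and 18.8 in stage 3 and 21.8 and 31.2 in stage 4, which overlapped (log2 change 1.14 ± 0.70, SE, limma adjusted p 0.504). Its estimate was -0.20 among the YH libraries alone. It fell from 83.2, 171 and 177 in stage 1 and 76.0, 65.2 and 83.5 in stage 2 to 1 read over all of stage 5. Ro02_G35126, described above for its early drop, had a log2 change of 0.57 ± 0.36 (SE, limma adjusted p 0.522), with stages 3 and 4 overlapping.

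Because the libraries chose the genes, the rule was also applied with 1 library left out at a time, and the genes chosen without it were read in that library. A gene lay on the falling side if it was below the neighbouring stage before and above the one after. As in the rule, stages 3 and 4 were treated as a single stage. Their libraries were compared with stages 2 and 5 and not with each other, so the order of stages 3 and 4 was not checked here. In every library but stage 5 replicate 3, 194 to 200 of the 200 genes so chosen lay on the falling side. In stage 5 replicate 3 it was 182 of 200 (91.0%). The means of the neighbouring stages had helped choose these genes, so part of the count is fixed by the choice. Of all genes that met the minimum means, 48.0% to 50.3% lay on the falling side in the stage 1 libraries, 29.4% to 32.2% in stage 2, 28.9% to 30.2% in stage 3, 26.7% to 26.8% in stage 4 and 51.1% to 53.4% in stage 5. The drops measured in the unseen library reached 0.7 on every side in fewer genes, from 58.5% for stage 4 replicate 1 to 92.5% for stage 1 replicate 3. For stage 5 replicate 3 the median last drop was 0.87, against 1.18 in the libraries that had chosen the genes, and for stage 5 replicate 1 it was 1.24 against 1.03.

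**Figure D5:**
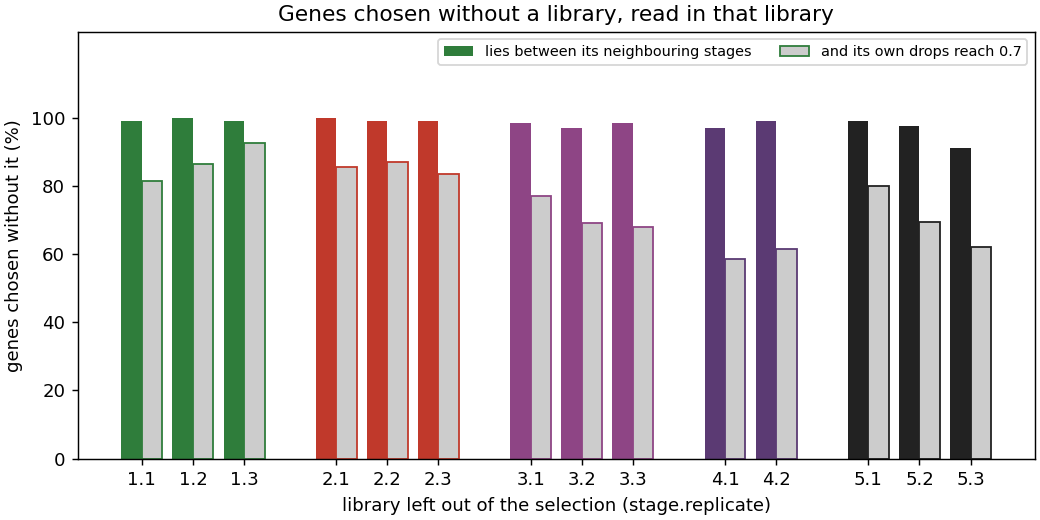
For each library, filled bars give the percentage of the 200 genes chosen without it that lay on the falling side in it. Open bars give the percentage whose drops in it also reached 0.7. Libraries of stages 3 and 4 were compared with stages 2 and 5 and not with each other. Filled bars are at 97.0% or more except for stage 5 replicate 3 at 91.0%; open bars are lowest for the stage 4 libraries, at 58.5% and 61.5%.

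The choice of genes moved with the libraries and the scaling. Each list made without 1 library shared 160 to 189 genes with the 200, and 96 genes were in all 14 such lists. Leaving out stage 5 libraries exchanged the most genes, with 168, 167 and 160 shared without replicates 1, 2 and 3. Under quantile normalization and under scaling to equal totals, 114 and 200 of the 200 genes scored at least 0.7. Under equal totals the median log2 change of all genes tested was itself -0.32 between stages 1 and 2 and -0.71 between stages 2 and 3, 682 genes passed the limit, and 154 of the 200 stayed among the highest 200. Under quantile normalization 163 genes passed.

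Within a stage, libraries differed in how far the 200 genes had fallen. Replicate 3 ranked highest more often than either other library in stages 1, 2, 3 and 5, namely in 100, 140, 96 and 98 of the 200 genes, against 36.1%, 32.9%, 29.4% and 32.3% of all genes tested. In stage 2 replicate 2 was lowest in 114 genes (36.4% of all genes tested), and its median deviation from the stage mean was -0.15 on the log2 scale, against 0.19 for replicate 3. The corresponding medians over all genes tested were -0.00033 and 0.02. In stage 5, replicate 1 was lowest in 100 of the 200 genes (31.9% of all genes tested), with a median deviation of -0.21. The 2 stage 4 libraries were level, each lower in about as many genes (104 and 96).

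The selected genes were also more variable between replicates than the typical gene. The median pooled within-stage SD of log2(normalised count + 1) was 0.44 over the 200 genes and 0.31 over all genes tested. By stage it was 0.26, 0.26, 0.44, 0.24 and 0.55 for the 200 genes in stages 1 to 5, against 0.23, 0.21, 0.26, 0.16 and 0.28. These genes had fewer reads in stages 3 to 5 than in stages 1 and 2, and the part of read number in this spread was not tested.

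The widest spread was in Ro03_G32501 and Ro06_G16835. Ro03_G32501 stood at 1331, 319 and 168 in stage 1, 211, 231 and 297 in stage 2, 58.4, 76.9 and 24.4 in stage 3, 7.26 and 38.7 in stage 4, and 3.92, 0 and 14.8 in stage 5. Replicate 1 alone set its stage 1 mean, and stage 1 overlapped with stage 2. Ro06_G16835 stood at 897, 1073 and 2004 in stage 1, 112, 107 and 161 in stage 2, 127, 10.2 and 52.6 in stage 3, 19.4 and 10.9 in stage 4, and 0, 2.76 and 11.8 in stage 5, with overlap between stages 2 and 3, between 3 and 4, and between 4 and 5.

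A few genes reached the limit of detection. Ro06_G04832, singled out after its values were seen, was the 1 gene with no reads in any stage 5 library. It had stood at 258, 297 and 356 in stage 1, 137, 98.6 and 162 in stage 2, 8.17, 2.56 and 24.4 in stage 3, and 2.42 and 6.74 in stage 4. Its stage 1 mean was at least 58.2-fold higher than a floor of 3 reads per stage 5 library, a bound for counting error only. Its stage 4 mean was 0.877 times that floor, so by this floor, set per library, the size of its last step was not resolved. Stage 5 held 3 reads or fewer over all its libraries for 8 of the 200 genes.

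By identifier, the 200 genes were spread over all 7 prefixes of the table, Ro01 to Ro07. Ro02 held 42 of them, 21.0% of the 200 against 15.6% of the genes that met the minimum means, and Ro06 held 33, 16.5% against 18.8%. The other prefixes held 20 to 30 each. Consecutive rows of the table held 4 of the 200 (2.0%), as the pairs Ro07_G07745 with Ro07_G07746 and Ro02_G03093 with Ro02_G03094. The 200 made up 1.59% of the genes that met the minimum means, and no expected number of pairs was worked out.

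The paired neighbours did not fall in step with each other. Ro07_G07745 stood at 697, 868 and 1117 in stage 1, 286, 339 and 411 in stage 2, 213, 233 and 214 in stage 3, 189 and 174 in stage 4, and 80.3, 135 and 87.2 in stage 5, an 8.86-fold loss without overlap between stages. Ro07_G07746, given above for its middle drop, fell 185-fold. Ro02_G03093 stood at 537, 732 and 448 in stage 1, 233, 222 and 262 in stage 2, 117, 76.9 and 101 in stage 3, 82.3 and 75.0 in stage 4, and 25.5, 44.2 and 39.9 in stage 5.

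Ro02_G03094 stood at 989.7, 2147 and 521 in stage 1, 48.9, 60.2 and 75.9 in stage 2, 11.7, 17.9 and 7.51 in stage 3, 12.1 and 8.42 in stage 4, and had 2 reads over all of stage 5. Its early fall, 19.8-fold from stage 1 to stage 2, contrasts with 2.40-fold in its neighbour. Whether members of such a pair share reads through similar sequence could not be checked from the table. Of the genes in the rows next to the 200, 259 were tested and 135 (52.1%) were called lower from stage 1 to stage 5, against 44.8% of all genes tested. Their median log2 change was -0.58, against -0.30 over all genes tested and -5.31 over the 200 genes.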

How the data were processed

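Per the submitters' processing notes, reads were trimmed with Trimmomatic, aligned with HISAT2 and normalised with DESeq2, for which the sources used here give no versions; the counting tool, genome build and annotation are likewise not given in them. The deposited signal was 1 normalised count per gene and library: the authors divided each read count by 1 size factor per library. In every library 100.0% of values were whole multiples of 1 read to within 0.01 read, so whole reads were recovered.

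Genes with at least 2 libraries at 10 normalised counts (19234, all 200 selected genes among them) entered limma 3.58.1 (R 4.3.3) as log2(normalised count + 1), with a trended prior variance and all 14 libraries in 1 model. Tests were two-sided with Benjamini-Hochberg adjustment per comparison and a threshold of 0.05. The scale makes fold changes of low genes too small. The recovered reads were tested with edgeR 4.0.16 and DESeq2 1.42.0. Known changes in simulated counts were used to check the limma step. The changed genes had starting means well above the filter, so the check did not cover low members at the late steps.

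The selected genes, the lists and the tests were chosen with earlier results of these data known. Lists of gene names (photosynthesis, cell wall and others) could not be matched to identifiers and gave no result. Named genes were the 2 at the top of each of these orders: score, stage 1 mean, each of the 3 drops, stage 3 to stage 4 p in each direction, either side of the limit, within-stage spread, and pairs in consecutive rows. Any other gene is marked as singled out. Alternatives were pseudocounts of 0.5 and 10, no filter or one at 50, quantile and equal-total scaling, a flat prior, a replicate block, a term for title letters, the 2 stages alone, single libraries left out and, for the rule, constants of 1 and 50. Deviations from stage means of libraries with the same replicate number correlated across genes at 0.39, 0.24 and 0.24 between stages 1 and 2. In every other pair of stages the correlation was at or below 0.1 for at least 1 number. The main model held no term for pairing, and the replicate block was run only as an alternative. The titles number the stage 4 libraries 1 and 2 and the library names 2 and 3; by the latter, stage 4 correlated with the other stages at -0.055 to 0.088. A block by library name was added after seeing the data.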

Additional observations from a re-analysis of the deposited data

How the results depend on the processing

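The cause of the moves below was not tested unless stated. The members called from stage 3 to stage 4, 0 by limma, were 12 with DESeq2, 2 with equal totals, and 1 each with a filter at 50, a flat prior variance and a pseudocount of 10, and, leaving out one library at a time, 0 to 11 (11 without stage 3 replicate 2). Their median change at this step was -0.72 with equal totals, where all genes tested moved to -0.21, -0.33 with quantile normalization and -0.67 among YH libraries, and ranged from -0.63 to -0.44 with single libraries left out; it was below 0 under every setting run. The 123 members called lower from stage 4 to stage 5 became 62 with quantile normalization and 28 with the libraries of the 2 stages alone, where fewer libraries estimate the spread, and 56 to 130 with single libraries left out. With a constant of 1 in the rule, 486 genes passed the limit, and 111 of the 200 members stayed among the highest 200. A constant of 50 left 55 genes past the limit, 54 of them members. Quantile normalization kept 114 members, and 130 were kept when stages 3 and 4 each had to meet the limit. Leaving out single libraries kept 160 to 189. The counts without single libraries for stages 1 and 2 (136 to 180), 2 and 3 (143 to 185) and 1 and 5 (200) stayed within 1.5 times their values, as under the other settings. A replicate block gave 174, 176, 140 and 200 members called lower at these steps (in the order 1 to 2, 2 to 3, 4 to 5 and 1 to 5) and 0 from stage 3 to stage 4, and changed no count by over 1.5 times. A block by the numbers in the library names, which differ from those in the titles in stage 4, was chosen after seeing the data and gave 172, 175, 120 and 200, again 0 from stage 3 to stage 4, and a median of -0.52 there. Read numbers of the members were smallest at the last step, with a median of 6 to 13.5 reads per member in the stage 5 libraries.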
